A study of Homo sapiens with 8 samples.

Results

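Lysophosphatidic acid (LPA) is a signalling lipid, and the genes described here encode enzymes that remove it and related lipids and receptors that sense it. They are 5 phospholipid phosphatase genes (PLPP1, PLPP2, PLPP3, PLPP5 and PLPP6), 3 LPA receptor genes (LPAR1, LPAR2 and LPAR3) and PLA2G7. They were picked by symbol from 60609 genes in a table of read counts, with the higher PLPP3 and lower PLA2G7 of the edited cells already known. All 9 passed the filter on low counts, among 15751 genes tested. RNA was sequenced from HCT116 cells, a line from a human colorectal carcinoma. There were 4 libraries of parental cells with wild-type GNAS, labelled as controls, and 4 libraries of a CRISPR-Cas9 derivative with the genotype GNAS R201C/+. Both groups were grown in DMEM/F12 with serum. The labels say neither whether the derivative is 1 clone nor whether replicates were separate cultures, so the p-values cover the variation among these 8 libraries and no more, and part of it may be technical.

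LPA acts on G protein-coupled receptors at the cell surface, which signal through Gi, Gq and other G proteins. PLPP1, PLPP2 and PLPP3 are membrane enzymes with an outward-facing active site that strip the phosphate from LPA, phosphatidic acid and sphingosine 1-phosphate. PLA2G7 is a secreted phospholipase A2 that breaks down platelet-activating factor and oxidised phospholipids. R201C is an activating change in the stimulatory G protein alpha subunit, which raises cyclic AMP (cAMP). Some cAMP-responsive genes hold a cAMP response element (CRE) near their start.

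Sequences before the annotated starts of PLPP3 and PLA2G7 are shown because these genes differed most between the groups. The start of PRKAA2 is shown because some PLPP3 transcripts begin next to it, as described further on. Each is the 250 bases before a RefSeq start on GRCh38.p14, 5′ to 3′ on the gene's strand. Capitals mark GC boxes (GGGCGG or its complement CCGCCC) and CCAAT boxes (CCAAT or its complement ATTGG).
PLPP3, chr1:56579564-56579813, minus strand: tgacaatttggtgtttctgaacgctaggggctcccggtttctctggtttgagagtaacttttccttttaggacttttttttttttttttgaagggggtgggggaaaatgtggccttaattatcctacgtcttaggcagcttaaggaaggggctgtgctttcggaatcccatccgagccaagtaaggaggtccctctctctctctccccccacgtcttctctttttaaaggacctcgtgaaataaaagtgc
PRKAA2, chr1:56645064-56645313, plus strand: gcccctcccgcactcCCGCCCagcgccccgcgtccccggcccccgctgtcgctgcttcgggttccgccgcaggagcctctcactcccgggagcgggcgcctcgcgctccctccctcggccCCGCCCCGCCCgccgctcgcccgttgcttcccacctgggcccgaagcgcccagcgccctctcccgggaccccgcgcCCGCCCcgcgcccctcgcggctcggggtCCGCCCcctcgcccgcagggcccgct
PLA2G7, chr6:46735722-46735971, minus strand: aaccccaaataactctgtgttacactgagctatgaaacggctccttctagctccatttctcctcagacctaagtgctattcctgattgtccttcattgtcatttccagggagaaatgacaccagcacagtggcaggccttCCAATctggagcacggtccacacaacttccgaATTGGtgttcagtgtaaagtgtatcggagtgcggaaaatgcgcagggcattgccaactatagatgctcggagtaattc
The PLPP3 window had a GC content of 46.0% and neither box. The PRKAA2 window had a GC content of 83.2% and 5 GC boxes, of which a pair share bases, and the PLA2G7 window had 47.6% and 2 CCAAT boxes. RefSeq gives PLA2G7 a second start, whose window (chr6:46735376-46735625, not printed) had a GC content of 70.0% and neither box. The median over 35116 windows of all genes was 58.0%. On either strand, 42.6% of those windows hold a GC box and 32% a CCAAT box. None of these windows holds the CRE half-site TGACG, which 21.2% of all windows hold, or the full CRE TGACGTCA, which 1.65% hold and which contains the half-site on each strand. The table held 7 of the 9 genes, and apart from the half-site in 1 of the 6 LPAR1 windows none of their windows held TGACG. These are matches of letters and say nothing of binding.

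The libraries held between 42584988 and 50986733 counts. GNAS itself differed little, with a log2 fold change of 0.07 (SE 0.02, edgeR adjusted p = 0.00412), and its groups overlapped. Of 9 colon epithelial markers, EPCAM, KRT8, KRT18, CDH1 and CDX2 were well counted, VIL1 and CDH17 were under 1 CPM (count per 1000000 of scaled library size) in every library, and KRT20 and CDX1 were listed at 0. The summed level of the 9 was 2992 to 3088 CPM in parental and 3498 to 3585 CPM in GNAS R201C/+ libraries, and of the 5 tested 4 rose and CDX2 fell. The part of this difference in the results was not tested. Markers of leukocytes (6 genes, PTPRC and CD3E at 0 in all libraries) summed to at most 1.004 CPM and those of endothelium (5 genes) to at most 1.02 CPM, with overlapping groups. Fibroblast markers summed to 28.7 to 32.4 CPM in parental and 29.6 to 31.6 CPM in GNAS R201C/+ libraries, nearly all of it COL1A1. DCN and LUM were listed at 0, and these groups overlapped too. For any of these markers, a listing at 0 does not show that the gene was silent.

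Among the phosphatase genes, PLPP3 was 3.07-fold higher in GNAS R201C/+ cells while the other members differed by at most 1.12-fold. Outside the phosphatases, LPAR1 was 1.34-fold higher and PLA2G7 was 3.90-fold lower. By edgeR's quasi-likelihood test over all genes at an adjusted p under 0.05, 7 of the 9 genes were called, beside 48.1% of all tested genes. Of these 4 were higher and 3 lower, beside 24.1% and 24% of all tested genes. The called genes that changed at least 2-fold were PLPP3 and PLA2G7, 2 of 9 beside 1.54% of all tested genes, with 0.838% higher and 0.698% lower. In 5 of the 9 the groups did not overlap, beside 41.6% of all tested genes. The choice of genes used this contrast, so these counts and the fold changes of the 9 genes are given as a description without p-values. The median log2 fold change of the 9 was 0.14 and that of all tested genes was 0.002. In RNA from whole cultures, a smaller share of cells with a transcript and less of it per cell cannot be told apart.

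**Figure D1:**
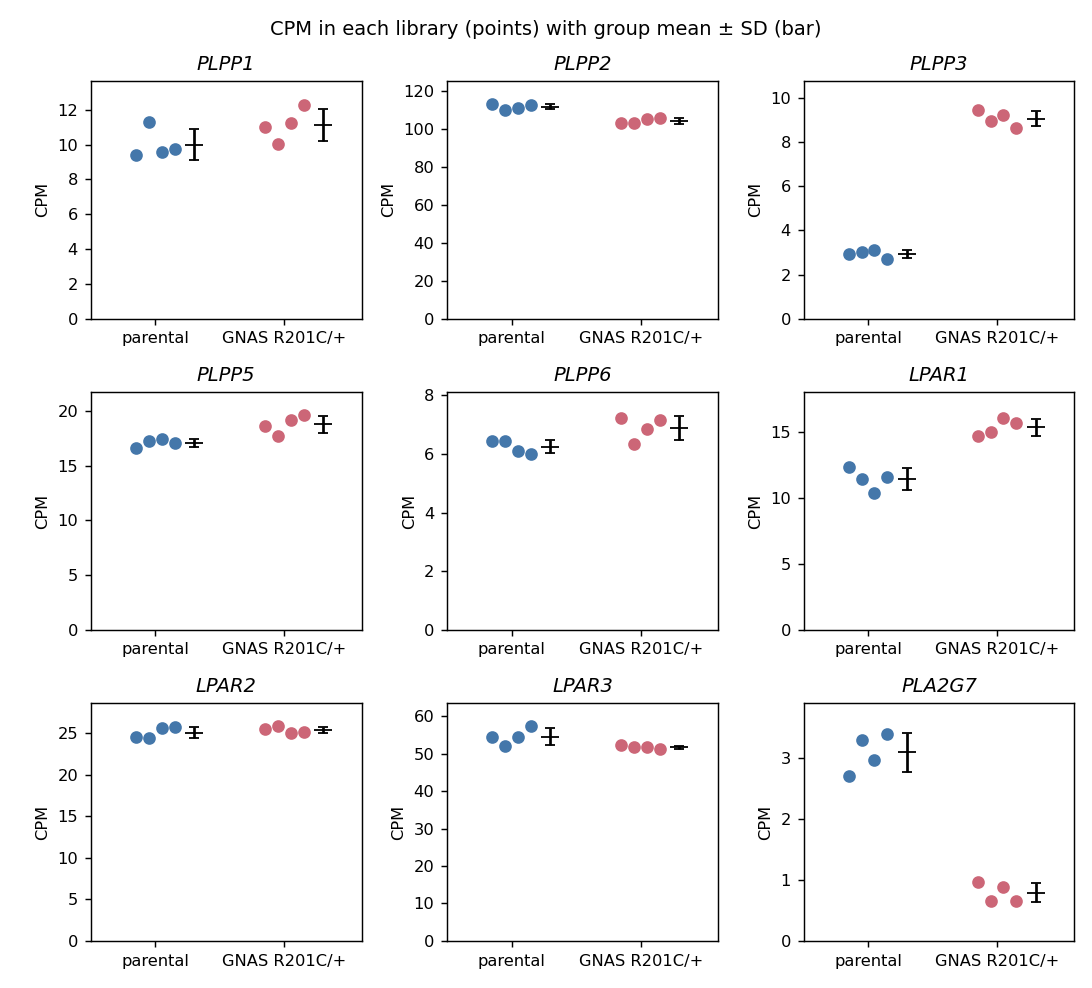
Level of each of the 9 genes in CPM, with 1 point per library and axes from 0, with the mean ± SD of the 4 libraries of a group beside them. PLPP3 sits between 2.72 and 3.13 CPM in parental and between 8.65 and 9.46 CPM in GNAS R201C/+ libraries, and PLA2G7 between 2.72 and 3.40 and between 0.656 and 0.964 CPM.

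PLPP3 (ENSG00000162407.9) lies on chromosome 1 from 56494747 to 56645301 on the minus strand of GRCh38. Its level in parental replicates 1 to 4 was 2.91, 3.04, 3.13 and 2.72 CPM. In GNAS R201C/+ replicates 1 to 4 it was 9.46, 8.97, 9.24 and 8.65 CPM. Every GNAS R201C/+ library was above every parental library. The fitted log2 fold change came to 1.62 (SE 0.07), from 116 to 148 reads per parental and 409 to 442 per GNAS R201C/+ library. With each of 17 alternatives the gene kept its call, at a log2 fold change of 1.58 to 1.65.

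PLPP2 (chromosome 19, 281040 to 291504, minus strand), a surface phosphatase of the same type, was the most highly expressed of the 5 per exon length. Its parental libraries held 113, 109.9, 111 and 112 CPM and its GNAS R201C/+ libraries 103, 103, 105 and 106 CPM. The groups did not overlap, and the fall was small and called, with a log2 fold change of -0.10 (SE 0.02). PLPP1 (chromosome 5, 55424854 to 55535050, minus strand), also of that type, held 9.39, 11.3, 9.59 and 9.74 CPM in parental and 11.0, 10.1, 11.2 and 12.3 CPM in GNAS R201C/+ libraries. Here the groups overlapped, since parental replicate 2 was above 3 of the 4 GNAS R201C/+ libraries.

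The log2 fold change of PLPP1 was 0.16 (SE 0.06), and its call did not hold. Of the parental libraries, leaving out replicate 1, 3 or 4 ended it, at 0.12, 0.14 and 0.14. Leaving out GNAS R201C/+ replicate 3 or 4 also ended it, at 0.15 and 0.11. DESeq2 did not call it either. PLPP1 also shares 481 of its 2016 exonic bases with MTREX on the opposite strand, which had 7733 to 9470 reads per library against at least 413 for PLPP1. The strand setting of the counting is not given in the sources used here.

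PLPP5 (chromosome 8, 38263130 to 38269243, minus strand) and PLPP6 (chromosome 9, 4662315 to 4665258, plus strand) are more distant members. PLPP6 is known to act on presqualene diphosphate, an isoprenoid. PLPP5 held 16.6, 17.2, 17.4 and 17.1 CPM in parental and 18.6, 17.7, 19.1 and 19.6 CPM in GNAS R201C/+ libraries. Its groups did not overlap and it was called, with a log2 fold change of 0.14 (SE 0.04). PLPP6 held 6.46, 6.44, 6.10 and 6.01 CPM and then 7.24, 6.34, 6.85 and 7.15 CPM. Its groups overlapped through GNAS R201C/+ replicate 2, and at a log2 fold change of 0.14 (SE 0.07) it was not called. Without that library it was called, at 0.18.

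Among the receptors, LPAR1 (chromosome 9, 110873263 to 111038458, minus strand), which couples to several kinds of G protein, had the largest difference. It held 12.3, 11.4, 10.3 and 11.5 CPM in parental and 14.6, 14.95, 16.1 and 15.7 CPM in GNAS R201C/+ libraries. The groups did not overlap, and the log2 fold change was 0.42 (SE 0.05). Leaving out any library kept its call, as did every other alternative apart from the test against a 1.5-fold change.

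LPAR2 (chromosome 19, 19623668 to 19628930, minus strand), another G protein-coupled LPA receptor gene, held 24.6, 24.4, 25.6 and 25.7 CPM in parental and 25.5, 25.9, 25.0 and 25.2 CPM in GNAS R201C/+ libraries. The groups overlapped and the log2 fold change of 0.02 (SE 0.04) was not called. LPAR3 (chromosome 1, 84811602 to 84893213, minus strand), a receptor that prefers LPA with unsaturated chains, held 54.4, 52.0, 54.5 and 57.4 CPM in parental and 52.2, 51.7, 51.8 and 51.1 CPM in GNAS R201C/+ libraries. These groups overlapped through parental replicate 2, and the log2 fold change was -0.08 (SE 0.03). The call of LPAR3 ended without parental replicate 4, at -0.06, without GNAS R201C/+ replicate 4, at -0.07, and with DESeq2.

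PLA2G7 (ENSG00000146070.17) lies on chromosome 6 from 46704201 to 46735693 on the minus strand. It held 2.72, 3.31, 2.97 and 3.40 CPM in parental and 0.964, 0.658, 0.888 and 0.656 CPM in GNAS R201C/+ libraries. Every GNAS R201C/+ library was below every parental library. The fitted log2 fold change came to -1.96 (SE 0.13), on 128 to 152 reads per parental and 30 to 45 per GNAS R201C/+ library. It lay between -2.07 and -1.88 over 17 alternatives, each of which called it. PLA2G7 shares 119 exonic bases with TDRD6 on the opposite strand, which had 13 to 41 reads per library.

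The order of levels within each family was read per kilobase of merged exon. In parental cells PLPP2 stood at 15.8 ± 0.205 CPM per kb (SD, n = 4), PLPP1 at 4.96 ± 0.437, PLPP5 at 4.16 ± 0.0879, PLPP6 at 2.12 ± 0.0778 and PLPP3 at 0.559 ± 0.0338. In GNAS R201C/+ cells the order was the same, with PLPP3 at 1.72 ± 0.0666 CPM per kb. PLPP3 thus made up 2.02% ± 0.120 of the summed PLPP level per kb in parental and 5.95% ± 0.327 in GNAS R201C/+ libraries. PLPP2 made up 57.2% ± 1.34 and 51.0% ± 1.05.

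Divided by the longest transcript in place of merged exons, the neighbours in this order changed places. PLPP5, at 7.82 CPM per kb in parental cells, was then above PLPP1, at 6.26. In GNAS R201C/+ cells PLPP3, at 2.76 CPM per kb, was then above PLPP6, at 2.34. The receptor order held by both lengths, with LPAR3 at 15.4 ± 0.621, LPAR2 at 8.42 ± 0.231 and LPAR1 at 2.74 ± 0.199 CPM per kb in parental cells. The summed level of the 3 receptors was 26.6 ± 0.821 CPM per kb in parental and 26.8 ± 0.110 in GNAS R201C/+ cells, and the LPAR1 share was 10.3% ± 0.773 and 13.8% ± 0.596.

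**Figure D2:**
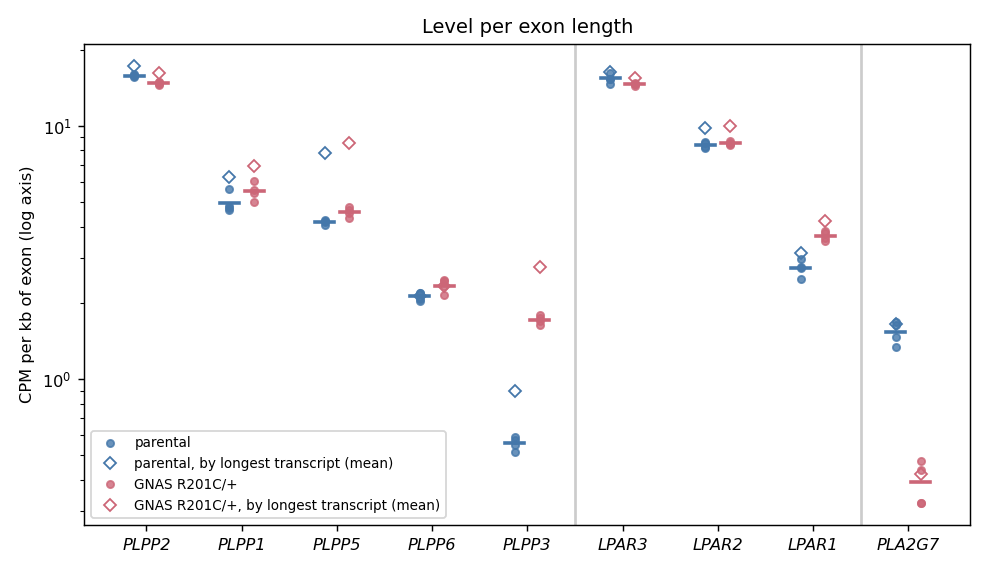
Level per kilobase of exon (CPM per kb, log axis) of each gene, by merged exons (points are libraries, bars the mean of 4) and by the longest transcript (open diamonds, group means). PLPP2 and LPAR3 lead their families at 15.8 and 15.4 CPM per kb in parental cells, and PLPP3 is lowest of the PLPP genes at 0.559.

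The spread between libraries of 1 group is given as a description, since a choice of genes by their difference may depend on it. It was compared with genes whose mean in the group lay within 1.25 times. PLPP1 varied more than the middle gene of its level, with a coefficient of variation of 8.80% in parental and 8.11% in GNAS R201C/+ libraries, beside medians of 4.87% over 848 genes and 4.62% over 918. LPAR3 in GNAS R201C/+ libraries varied by 0.860%, beside a median of 2.52% over 1689 genes, whereas in parental libraries it varied by 4.03%, beside 2.53% over 1640. PLPP2, PLPP3 and LPAR2 varied less than the median of their level in both groups. For PLPP3 the values were 6.06% in parental libraries, beside 8.63%, and 3.88% in GNAS R201C/+ libraries, beside 5.15%. PLPP5 and PLPP6 were below that median in parental and above it in GNAS R201C/+ libraries. For LPAR1 the parental value was 7.25%, beside 4.57% over 915 genes. For PLA2G7 in parental libraries it was 10.2%, beside 8.42% over 572 genes. In GNAS R201C/+ libraries PLA2G7 varied by 20.0%, beside 15.4% over 728 genes.

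Other genes of the pathway were read from 7 lists of 76 genes, of which 57 were tested. In all, 20 rose, 14 fell and 23 did not pass. That is 59.6% called, beside 48.1% of all tested genes, with a median log2 fold change of 0.04. Of the 57, 5 were called and changed at least 1.5-fold, beside 788 of 15751, or 5%, of all tested genes. None passed a test against a 1.5-fold change (edgeR glmTreat), in which 2 had an unadjusted p under 0.05. Against no change, DESeq2 called 27 of the 57, beside 3294 higher and 3339 lower among all 15751 tested genes. The limma-voom fit called 32 of the 57, beside 3787 higher and 3770 lower among all tested genes.

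**Figure D3:**
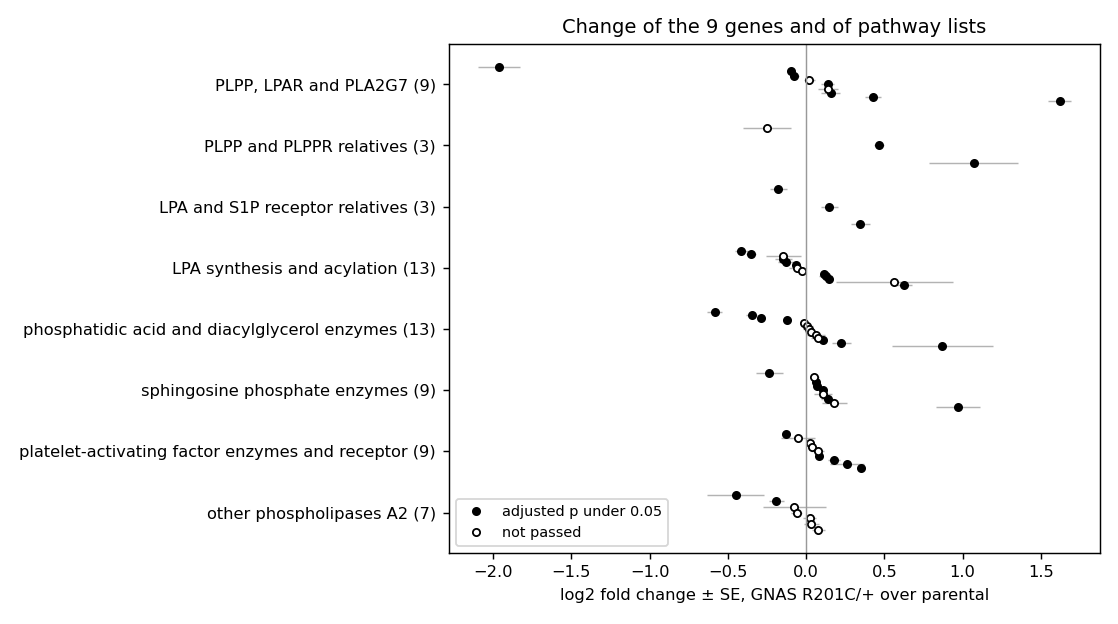
Log2 fold change ± SE (GNAS R201C/+ over parental) of the 9 genes and of the tested genes in 7 pathway lists (number tested in brackets), where filled points passed an edgeR adjusted p under 0.05. PLPP3 at 1.62 and PLA2G7 at -1.96 lie outside the range of every pathway list.

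Among relatives of the phosphatases, 2 of 3 tested rose and 1 did not pass. PLPPR2, a lipid phosphatase-related protein without known phosphatase activity, rose from 37.4 ± 0.804 to 51.6 ± 2.61 CPM (edgeR adjusted p = 1.34e-15). PLPP7, another family member without shown enzyme activity, rose from 0.210 ± 0.0486 to 0.438 ± 0.123 CPM (edgeR adjusted p = 0.00173). PLPPR4, a neuronal relative, had a log2 fold change of -0.25 (edgeR adjusted p = 0.178). PLPP4, PLPPR1 and PLPPR5 were listed at 0 in all libraries, which does not show that they were silent. CSNK2B and DDX39B, genes that every cell uses, were listed at 0 as well. Both lie on chromosome 6, however, whereas PLPP4, PLPPR1 and PLPPR5 lie on chromosomes 10, 9 and 1.

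All 3 tested receptor relatives passed. LPAR5, an LPA receptor, rose from 6.11 ± 0.203 to 7.77 ± 0.315 CPM (edgeR adjusted p = 1.25e-05), in the direction of LPAR1. The sphingosine 1-phosphate receptor gene S1PR2 fell by 0.18 on the log2 scale (edgeR adjusted p = 0.00594) and S1PR5 rose by 0.15 (edgeR adjusted p = 0.0184). The S1PR5 call ended without parental replicate 2 (0.0573) and without GNAS R201C/+ replicate 1 (0.0569). S1PR2 shares 83 exonic bases on the same strand with DNMT1, which had 19325 to 23023 reads per library. LPAR4, LPAR6 and 3 sphingosine 1-phosphate receptor genes had at most 12 reads in any library.

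Of 13 tested genes for LPA synthesis and acylation, 4 rose, 5 fell and 4 did not pass. AGPAT1, AGPAT5 and LIPI were listed at 0 in all libraries, which does not show that they were silent. AGPAT1 lies on chromosome 6, as CSNK2B and DDX39B do. LIPH, a membrane phospholipase that makes LPA from phosphatidic acid, rose from 8.51 ± 0.235 to 13.2 ± 0.549 CPM (edgeR adjusted p = 3.40e-13). GPAT2 and GPAT3, acyltransferases that make LPA inside the cell, fell by 0.41 and 0.35 on the log2 scale (edgeR adjusted p = 1.48e-11 and 9.27e-12). GPAT2 shares 473 exonic bases with FAHD2CP on the opposite strand, which had 168 to 205 reads. GPAT4, the best counted gene of the list that did not pass, had a log2 fold change of -0.03 (edgeR adjusted p = 0.280). ENPP2, named after its values were seen because it encodes autotaxin, the main secreted LPA-making enzyme, was barely counted at 0.156 ± 0.0715 and 0.227 ± 0.0817 CPM and did not pass (edgeR adjusted p = 0.219).

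Enzymes of phosphatidic acid and diacylglycerol were mixed, with 3 of 13 higher, 4 lower and 6 not passing. The diacylglycerol kinase gene DGKH fell from 27.0 ± 0.405 to 18.0 ± 1.76 CPM (edgeR adjusted p = 3.86e-12) and the phosphatidate phosphatase gene LPIN1 from 36.8 ± 1.59 to 28.9 ± 1.35 CPM (edgeR adjusted p = 1.00e-10). DGKB rose by 0.87 on the log2 scale, from 0.165 to 0.303 CPM on average (edgeR adjusted p = 0.0247). That call was lost when parental replicate 2 (0.113) or GNAS R201C/+ replicate 1 or 3 (0.0514 and 0.0948) was left out, with DESeq2 (0.0850) and with no filter on low counts (0.0512). PLD2, a phospholipase D that makes phosphatidic acid, had a log2 fold change of -0.01 (edgeR adjusted p = 0.698).

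Among sphingosine phosphate enzymes, 5 of 9 rose, 1 fell and 3 did not pass. SGPP1 was listed at 0 in all libraries, which does not show that it was silent. SGPP2, which dephosphorylates sphingosine 1-phosphate inside the cell, rose from 1.20 ± 0.287 to 2.36 ± 0.349 CPM (edgeR adjusted p = 3.32e-07). The sphingosine kinase gene SPHK2 rose by 0.14 on the log2 scale (edgeR adjusted p = 0.00703), but it shares 661 exonic bases with DBP and 246 with RPL18 on the opposite strand. DBP had 1114 to 2052 and RPL18 26745 to 33772 reads per library, against at least 657 for SPHK2. The exporter gene SPNS2 fell by 0.24 (edgeR adjusted p = 0.0211), a call that ended without GNAS R201C/+ replicate 3 (0.109) and with DESeq2 (0.0602). SPNS2 shares 139 exonic bases with MYBBP1A on the opposite strand, which had 7638 to 9863 reads per library against at least 140 for SPNS2. ACER3, a ceramidase, had a log2 fold change of 0.05 (edgeR adjusted p = 0.130).

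The list nearest to PLA2G7 in function holds genes of platelet-activating factor together with related LPCAT acyltransferases. Of its 9 genes, 4 rose, 1 fell and 4 did not pass. The acyltransferase gene LPCAT3 rose by 0.35 on the log2 scale (edgeR adjusted p = 1.55e-14) and shares 3100 of its 4725 exonic bases with EMG1 on the opposite strand. EMG1 had 4362 to 5405 reads per library, against at least 2212 for LPCAT3. LPCAT2, which makes platelet-activating factor, rose by 0.18 (edgeR adjusted p = 1.36e-04). PTAFR, its receptor, went from 2.20 ± 0.0174 to 2.64 ± 0.343 CPM (edgeR adjusted p = 0.0409), and that call was lost when any 1 parental library (0.0616 to 0.0799) or GNAS R201C/+ replicate 3 or 4 (0.115 and 0.170) was left out. DESeq2 (0.0977), limma-voom (0.0564) and the fit with no filter (0.0833) did not call PTAFR either. PAFAH1B2, a catalytic subunit of the intracellular acetylhydrolase that acts on the same lipid as PLA2G7, had a log2 fold change of 0.04 (edgeR adjusted p = 0.147).

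Of 7 other tested phospholipases A2, 2 fell and 5 did not pass. PLA2G4A, the cytosolic enzyme that releases arachidonic acid, fell by 0.19 on the log2 scale (edgeR adjusted p = 0.00110). PLA2G4B fell by 0.45 (edgeR adjusted p = 0.0394) at under 1 CPM on average and shares 3360 exonic bases with its readthrough gene. Its call was lost when parental replicate 1, 2 or 4 (0.115, 0.0780 and 0.142) or GNAS R201C/+ replicate 1, 3 or 4 (0.0550, 0.0857 and 0.104) was left out. DESeq2 (0.105), limma-voom (0.0782) and the fit with no filter (0.0592) did not call PLA2G4B either. PLA2G12A, a secreted enzyme, had a log2 fold change of -0.06 (edgeR adjusted p = 0.140), and it passed without parental replicate 2 (0.0410).

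Across these lists no gene differed as much as PLPP3 or PLA2G7. That comparison is a description, since those were chosen for their difference.

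The position of the 9 genes was read next, by testing the genes within 500 kb of each. Of 99 tested neighbours 43 were called, 20 higher and 23 lower, which is 43.4% beside 48.1% of all tested genes. Large changes lay beside PLPP3 and PLA2G7. PLPP3 had 2 tested neighbours. PRKAA2, a catalytic subunit gene of AMP-activated kinase, lies on the opposite strand from 56645322, 21 bases beyond the outer end of PLPP3. It rose from 2.75 ± 0.231 to 13.5 ± 0.752 CPM, a log2 fold change of 2.29 (SE 0.07, edgeR adjusted p = 5.16e-28), and every GNAS R201C/+ library was above every parental library.

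Those outer PLPP3 ends belong to non-coding transcripts ENST00000461655.1 and ENST00000476206.1, which start at 56645301 and 56645272. The protein-coding PLPP3 transcript ENST00000371250.3 starts at 56579568, and the PLPP3 window printed above lies beside that start. The GC-rich window before PRKAA2 covers the start positions of the outer transcripts. On the PLPP3 strand, however, most of that window lies after those starts. No full window before the outer PLPP3 starts was searched for GC boxes, CCAAT boxes or CREs. PLPP3 and PRKAA2 share no exonic bases. Counts per gene do not separate these transcripts, so the rise of PLPP3 cannot be assigned to one start. AC099789.1, a processed pseudogene inside PLPP3 whose reads may come from elsewhere, had a log2 fold change of 0.32 (edgeR adjusted p = 0.342).

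Beside PLA2G7, 4 of 6 tested neighbours fell and the other 2 did not pass, where 24% of all tested genes fell. ADGRF1, an adhesion receptor gene 262010 bases away, fell from 34.2 ± 1.34 to 0.967 ± 0.147 CPM (edgeR adjusted p = 7.30e-41). SLC25A27, a mitochondrial carrier gene, fell from 5.04 ± 0.269 to 3.11 ± 0.231 CPM (edgeR adjusted p = 3.11e-09), and TNFRSF21, a death receptor gene, fell by 0.40 on the log2 scale (edgeR adjusted p = 4.87e-18). TDRD6 fell by 0.85 (edgeR adjusted p = 0.00580), a call that ended without parental replicate 3 (0.0546). It shares 119 exonic bases with PLA2G7 on the opposite strand. Whether reads of PLA2G7 were counted for TDRD6 was not tested. CYP39A1 and RCAN2 had log2 fold changes of -0.34 and -0.26 (edgeR adjusted p = 0.133 and 0.400). The changes of PRKAA2 and ADGRF1 were known when the windows were chosen, so these counts are no independent support.

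**Figure D4:**
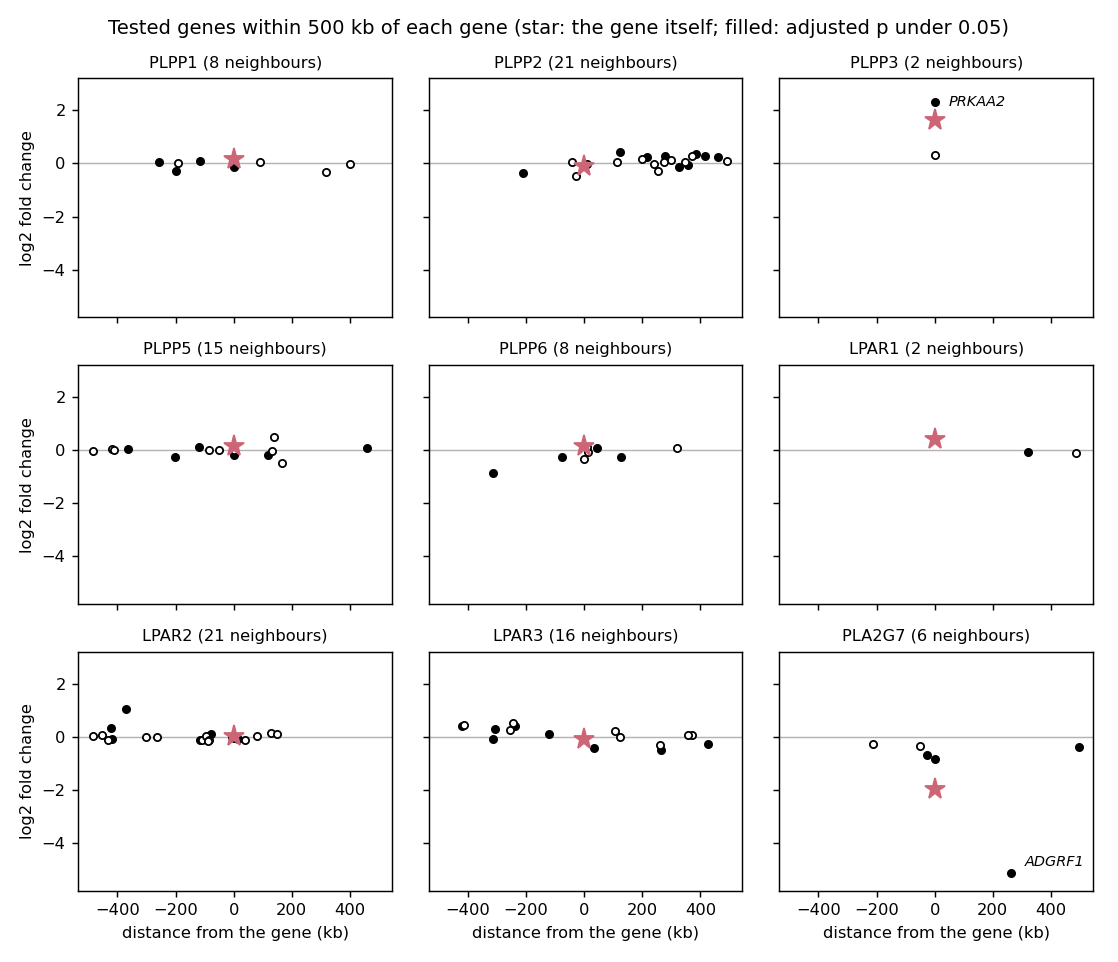
Log2 fold change (GNAS R201C/+ over parental) of tested genes within 500 kb of each of the 9 genes, by distance from the gene in kb, where genes that overlap it lie at 0, filled points passed an edgeR adjusted p under 0.05 and stars mark the gene itself. PRKAA2 at 2.29 lies beside PLPP3, and ADGRF1 at -5.14 lies 262 kb from PLA2G7.

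Beside the other 7 genes, the most changed called neighbours moved less than PRKAA2 and ADGRF1. GLIS3, a transcription factor gene near PLPP6, fell by 0.88 on the log2 scale (edgeR adjusted p = 8.04e-09), SYDE2 near LPAR3 fell by 0.49 (edgeR adjusted p = 8.46e-08) and MCIDAS, a regulator of multiciliated cells, near PLPP1 fell by 0.30 (edgeR adjusted p = 4.42e-05). The translation repressor gene EIF4EBP1 near PLPP5 fell by 0.28 (edgeR adjusted p = 2.46e-10) and the proteasome adaptor gene ECPAS near LPAR1 by 0.08 (edgeR adjusted p = 0.00133). NCAN, a proteoglycan gene near LPAR2, rose from 0.138 ± 0.0790 to 0.298 ± 0.0487 CPM (edgeR adjusted p = 0.0121), and that call was lost without parental replicate 3 or 4 (0.0606 and 0.0600). SHC2, an adaptor gene near PLPP2, rose by 0.44 (edgeR adjusted p = 0.0159), a call that ended without parental replicate 4 (0.0587) and without GNAS R201C/+ replicate 4 (0.124).

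Genes whose profile over the 8 libraries was most like that of PLPP3 or PLA2G7 were found by the root mean square difference of mean-centred log2 CPM. For PLPP3 these were the chloride channel gene CLIC3, the guidance factor gene SEMA3A and the Wnt antagonist gene DKK1, at 0.09, 0.12 and 0.13. CLIC3 went from 5.40 ± 0.292 to 15.8 ± 0.992 CPM and SEMA3A from 3.61 ± 0.230 to 9.93 ± 0.225 CPM. For PLA2G7 they were the homeobox genes HOXB4 and HOXB3 and the neuron navigator gene NAV3, at 0.21 each. HOXB4 went from 32.0 ± 0.849 to 7.43 ± 0.362 CPM and NAV3 from 20.5 ± 0.566 to 4.76 ± 0.193 CPM. With 2 groups the measure mostly ranks genes by the size of their difference between groups.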

How the data were processed

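The authors deposited raw counts for 60609 Ensembl genes, with 1 column per library. Per the submitters' processing notes they came from bcl2fastq, Trimmomatic, STAR, featureCounts and DESeq2 on GRCh38.p12. Tool versions, annotation release, strand setting and the treatment of multi-mapping reads: not given in the sources used here. Names, positions and lengths came from GENCODE 29, and start windows from RefSeq on GRCh38.p14.

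Tests used edgeR 4.0.16 in R 4.3.3: filterByExpr with minimum count 10 and minimum total 15 (15751 of 32806 genes with any read), TMM scaling, group as the only term, robust quasi-likelihood F tests and Benjamini-Hochberg adjustment over all tested genes, called under 0.05. Standard errors are the absolute log2 fold change over the square root of F, an approximation. CPM are counts per 1000000 of TMM-scaled library size, mean ± SD over 4 libraries. The edgeR fit was tested on simulated data. The genes, lists and tests were chosen with earlier results of these data known. Of the lists planned, 1 is not reported here.

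From each list the text names up to 3 called genes with the largest change and the best counted gene that did not pass. It also names every tested neighbour of PLPP3 and PLA2G7, the most changed called neighbour of each other gene, and 3 genes of most similar profile (prior count 2, mean of at least 5 CPM over all libraries). Alternatives were DESeq2 1.42.0, limma-voom (limma 3.58.1), 3 other scalings, no filter, a filter of 1 CPM in 4 libraries, testing against 1.5-fold, the replicate block, each library left out, other windows and the longest transcript.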

Additional observations from a re-analysis of the deposited data

Results flagged for a closer look

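Among the genes named above, 6 of 112 groups of 4 libraries held 1 library far from the other 3, and about 5% of groups do so by chance. None of the 6 concerned a PLPP gene with enzyme activity, LPAR1, LPAR2, LPAR3 or PLA2G7. PLPPR2 in parental replicate 1 was 38.6 CPM, above the 36.9 to 37.1 CPM of the others. PLPPR4 in parental replicate 2 was 1.26 CPM, above 1.102 to 1.13 CPM. S1PR5 in GNAS R201C/+ replicate 3 was 10.3 CPM, below 11.4 to 11.5 CPM. LPCAT3 in parental replicate 4 was 52.3 CPM, above 51.1 to 51.3 CPM. MCIDAS in parental replicate 2 was 10.2 CPM, above 9.62 to 9.72 CPM. NCAN in GNAS R201C/+ replicate 4 was 0.226 CPM, below 0.317 to 0.329 CPM.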

How the results depend on the processing

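Over 17 alternatives, the directions of the 56 named genes held except that of PLD2, which did not pass and was at 0.0002 without parental replicate 1. Of 944 values, 864 stayed on their side of the threshold, 78 lost a call and 2 gained one. In the test against a 1.5-fold change, called genes fell to 256, with 138 higher and 118 lower. In that test 2 of the 9 genes (PLPP3 and PLA2G7), 0 of the pathway genes (edgeR, 2 at an unadjusted p under 0.05) and 2 neighbours (PRKAA2 and ADGRF1) were called. With windows of 250 kb and 1000 kb in place of 500 kb, 22 of 55 and 77 of 158 neighbours were called. Leaving out single libraries gave 6905 to 7442 called genes in all, 5 to 8 of the 9, 29 to 33 pathway genes and 40 to 45 neighbours. DESeq2 called 5 of the 9, without PLPP1 and LPAR3, beside 3294 higher and 3339 lower among all 15751 tested genes. The replicate number as a block gave 7413 called genes, 6 of the 9 (not PLPP1), 33 pathway genes and 42 neighbours, and ended the PTAFR call (adjusted p = 0.0501). The data gave no sign that the numbers pair the libraries. Deviations of same-numbered libraries correlated at -0.047 to 0.054, and those of differently numbered ones at -0.099 to 0.094. Such weak correlations do not settle whether the libraries were paired. For PLA2G7, 30 to 45 reads per GNAS R201C/+ library limit the precision.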
